A study of Mus musculus with 27 samples.

Results

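The tricarboxylic acid cycle was followed through 9 genes: Cs, Idh3a, Idh3b, Idh3g, Ogdh, Sucla2, Suclg1, Fh1 and Mdh2. They were picked by symbol on a mouse expression array, by a rule that uses no measured value, although earlier results of these data were known when the set was drawn up, and 12 of the array's 55681 probes carry these symbols. All 9 were among the 16636 genes that could be tested, and every one of the 27 arrays gave a value for each of them.

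Each array held the amplified RNA of a single myofiber of the tibialis anterior, a fast muscle of the lower leg. WT myofibers came from wild type mice (8 myofibers, 2 mice). Smn1deltaSKM myofibers came from mice whose floxed Smn exon 7 was removed by Cre recombinase under the human skeletal actin promoter, so that the loss is limited to cells that use this promoter (12 myofibers, 3 mice). Smn1deltaSKM+AFS myofibers came from mice of that same knockout which had received amniotic fluid stem (AFS) cells through the tail vein (7 myofibers, 2 mice, with 4 and 3 myofibers). Per the labels all mice were male and 3 months old. The study's methods place the injection at that age, with the muscles taken a month later. The donor cells were GFP-positive, and the labels do not say which treated myofibers carried donor nuclei. No label names a batch, so slide and scan day were read from the scanner files. The WT arrays filled a slide of their own and were scanned on a separate day, so scan day and genotype cannot be told apart in any comparison with WT. Both knockout groups shared 2 other scan days but lay mostly on different slides.

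The cycle runs in the mitochondrial matrix, where it oxidizes the acetyl group of acetyl-CoA and passes the electrons to the respiratory chain. Citrate synthase (Cs) joins acetyl-CoA to oxaloacetate, and its activity is widely used as a measure of mitochondrial content in muscle. Isocitrate dehydrogenase 3 (subunits Idh3a, Idh3b and Idh3g) and the oxoglutarate dehydrogenase complex (Ogdh is its E1 component) carry out the NAD-dependent oxidative decarboxylations. Succinyl-CoA ligase (the common subunit Suclg1, paired with the ATP-forming Sucla2 or the GTP-forming Suclg2) makes succinate, and fumarase (Fh1) and malate dehydrogenase (Mdh2) close the ring.

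A probe reads a short stretch of one transcript, so what each probe sees bears on the values. Coordinates are those of the array's annotation (mouse build mm9), and the last 30 of a probe's 60 bases are shown for the genes whose results turn on the probe: the called genes Cs, Idh3g and Ogdh, and Idh3b and Suclg1, which serve as comparisons within an enzyme. No exon map of that build was used here, so exon or UTR is not given. No part is in capitals because no motif is marked.
Cs, chr10:127799428-127799487, plus strand: gtaactgttaaagtcatgatgcagacttca
Idh3g, chrX:71024358-71024417, minus strand: gcttgtctgtaggactctcttctcacttta
Idh3b, chr2:130106776-130106835, minus strand: gtgatgcccaatctctatggcaacataatt
Suclg1, chr6:73221044-73221103, plus strand: cgctgaagaaaatgctgccgcgtttctgaa
Ogdh, brightest probe, chr11:6256583-6256642, plus strand: cggcttgacccataaactaagttatcatgg
Ogdh, neighbouring probe, chr11:6256511-6256570, plus strand: acacctgatttatttattttggttaaaaaa
Ogdh, dim probe, chr11:6258910-6258969, plus strand: aagatggcttagcactgactgctcttccaa

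Values below are log2 of the scanner's processed signal minus the 75th percentile of the same array, so 1 unit is a 2-fold change and a level can be set only against the same probe on another array. Mice were the replicates. The myofibers of a mouse were averaged, limma compared the 7 mouse means of the 3 groups in one model, and a gene was called at a Benjamini-Hochberg adjusted p under 0.05 over all genes tested. Between 23170 and 37580 probes had a value on an array, and the number of arrays limits the precision. A single myofiber with less mitochondrial RNA and one with less RNA of these genes in particular cannot be told apart from these values. The array holds a pair of Smn1 probes. One was lower in all 3 Smn1deltaSKM mice than in both WT mice, by -1.68 (SE 0.368, limma, adjusted p = 0.0200 over all probes), and it stayed at 0.24 ± 0.821 in Smn1deltaSKM+AFS (SD, n = 2 mice) against 0.16 ± 0.216 in Smn1deltaSKM (SD, n = 3 mice). The other Smn1 probe differed by 0.19 (limma, adjusted p = 0.716). Whether either of them reads the deleted exon was not determined here, and a probe outside that exon would not read the deletion itself.

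In Smn1deltaSKM against WT, 3 of the 9 genes were called, all of them lower: Ogdh, Cs and Idh3g. Over all genes 22% were called (3656 of 16636) and 13.9% were called as lower. All 9 differences were below 0 under this scaling, with a median of -0.72 against -0.11 over all genes tested. The sign of the smallest, Sucla2, turned under 4 other scalings, where it reached 0.28.

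Ogdh, which decarboxylates 2-oxoglutarate, a step known to be activated by calcium, lay between 5.80 and 6.56 in the WT myofibers (median 6.0). In Smn1deltaSKM it lay between 2.76 and 5.26 (median 4.44). All 12 Smn1deltaSKM myofibers were therefore below the lowest WT myofiber. The mouse means were 6.10 in both WT mice and 4.05, 4.44 and 4.67 in the Smn1deltaSKM mice. The difference was -1.72 (SE 0.317, limma, adjusted p = 0.0137), a 3.28-fold lower signal.

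Cs lay between 5.15 and 6.01 in WT (median 5.88) and between 3.29 and 4.90 in Smn1deltaSKM (median 4.28). Again no Smn1deltaSKM myofiber reached the WT range, although the lowest WT myofiber stood apart from its group. The mouse means were 5.75 and 5.85 in WT and 4.22, 4.27 and 3.94 in Smn1deltaSKM, a difference of -1.65 (SE 0.259, limma, adjusted p = 0.00938) or 3.14-fold.

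Of the isocitrate dehydrogenase 3 subunits, only Idh3g, a regulatory subunit, was called. It lay between 5.04 and 5.94 in WT (median 5.76) and between 3.33 and 4.87 in Smn1deltaSKM (median 4.43), without overlap. The mouse means of 5.63 and 5.71 in WT stood against 4.56, 4.27 and 4.09, a difference of -1.37 (SE 0.266, limma, adjusted p = 0.0151) or 2.58-fold. Among the genes with values on all 20 arrays of these groups, 7.42% had every WT myofiber above every Smn1deltaSKM myofiber. Idh3a, the catalytic subunit, ranged from 4.02 to 5.0 in WT (median 4.40) and from 2.45 to 4.37 in Smn1deltaSKM (median 3.86). Its difference of -0.72 (SE 0.344) was not called (limma, adjusted p = 0.155). Idh3b, the other regulatory subunit, ranged from 5.21 to 6.27 (median 5.79) and from 4.12 to 5.93 (median 5.28), and its difference of -0.46 (SE 0.262) was not called either (limma, adjusted p = 0.229). For both the myofibers overlapped between the groups, while the mean of each Smn1deltaSKM mouse lay below both WT mice, which held for 33.2% of genes.

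Suclg1 came nearest to a call among the rest. It lay between 5.06 and 5.86 in WT (median 5.26) and between 3.33 and 5.11 in Smn1deltaSKM (median 4.31), and 11 of 12 Smn1deltaSKM myofibers were below the lowest WT myofiber. The difference was -1.08 (SE 0.339, limma, adjusted p = 0.0531), and Suclg1 was called in 5 of 23 other settings, for example with the mouse as a random block over myofibers (limma, adjusted p = 0.00881) or with only genes valued on every array (0.0480). Its partner Sucla2 overlapped widely, from 5.20 to 6.19 in WT (median 5.69) and from 4.31 to 6.36 in Smn1deltaSKM (median 5.74), with a difference of -0.08 (SE 0.335, limma, adjusted p = 0.883).

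The enzymes of the last steps were not called. Fh1 ranged from 5.12 to 5.90 in WT (median 5.50) and from 3.96 to 6.04 in Smn1deltaSKM (median 5.21), with a difference of -0.41 (SE 0.352, limma, adjusted p = 0.419). Its other probe differed by -0.53 (SE 0.316, limma, adjusted p = 0.243 over all probes). That probe read 1.14 in WT myofiber 2, which lowers its WT mean. It read 4.16 to 4.88 in the other WT myofibers and 2.38 to 4.18 in Smn1deltaSKM. Mdh2 ranged from 6.15 to 6.96 in WT (median 6.68) and from 5.49 to 6.82 in Smn1deltaSKM (median 6.21). Its difference was -0.44 (SE 0.250, limma, adjusted p = 0.226), with all 3 Smn1deltaSKM mice below both WT mice.

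**Figure D1:**
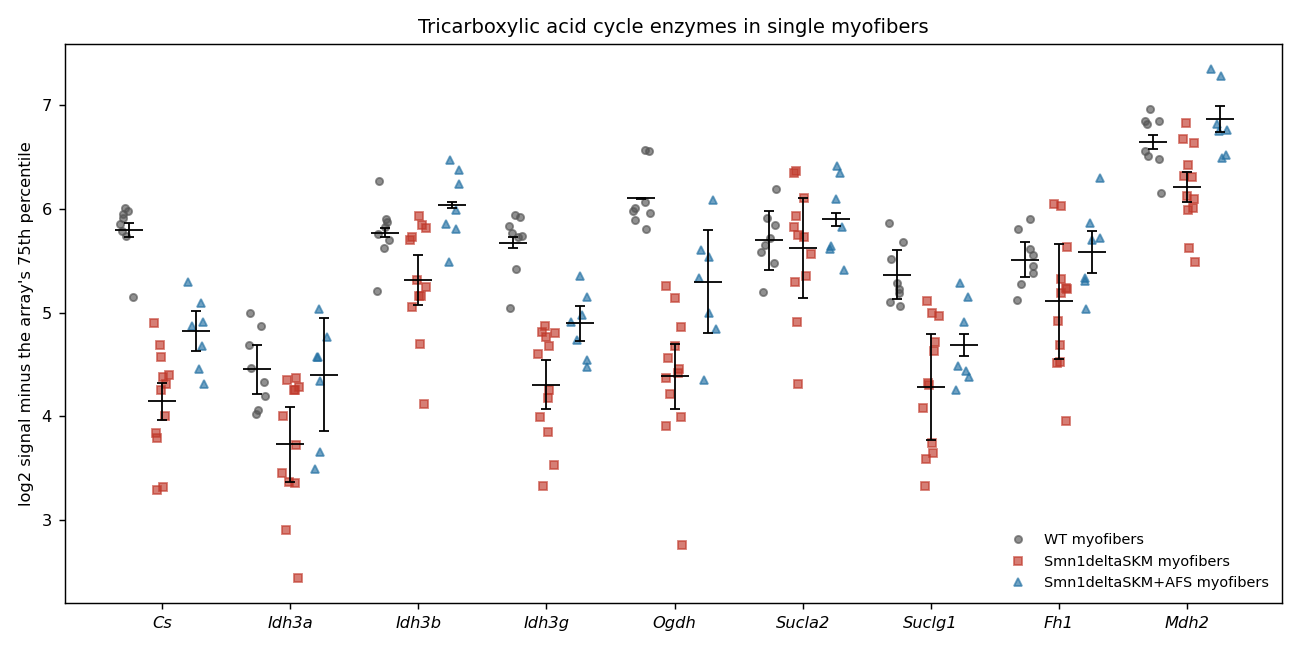
Each point is the value of a gene in 1 myofiber, as log2 signal minus the 75th percentile of its array. Black lines are the mean of the mice with their SD (2 WT, 3 Smn1deltaSKM and 2 Smn1deltaSKM+AFS mice). The Smn1deltaSKM points lie wholly below the WT points for Cs, Idh3g and Ogdh and overlap them for the other 6 genes.

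These limits bear on the count of 3. Without WT mouse 1 or WT mouse 2 none of the 9 was called (0 and 4 genes called over the whole array), although the differences of Cs, Idh3g and Ogdh stayed between -1.33 and -1.72. Without Smn1deltaSKM mouse 1 the count was 6, and without Smn1deltaSKM myofibers 1 to 3, the ones scanned on the first day, it was 5. Ogdh was not called after normexp background correction and quantile normalization (-0.67, limma, adjusted p = 0.201).

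The brightness of the arrays differed between the groups too. The 75th percentile that was subtracted lay between 6.51 and 7.30 on WT arrays and between 7.07 and 7.78 on Smn1deltaSKM arrays, and 8 of the 9 genes are among the brightest 10% of the genes tested, Idh3a being the exception. The median difference of that 10% was itself -0.43, and 14.6% of those genes were called as lower. After quantile normalization, which makes the arrays equal in distribution, the brightest 10% had a median of -0.06 and the 9 genes one of -0.45, with the same 3 called. Of all called genes 63.3% were lower in the scaling used, against 42.5% when arrays were centred on probes available on all of them, which moved the median of all genes from -0.11 to 0.10.

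Whether the probe mattered could be seen for Ogdh. The neighbouring probe, which starts 72 bases before the brightest one, read from 5.32 to 5.87 in WT and from 3.54 to 5.30 in Smn1deltaSKM, again without overlap. Its difference was -0.95 (SE 0.310, limma, adjusted p = 0.0594 over all probes). The dim probe farther along read from 0.03 to 0.63 in WT and from -0.98 to 0.76 in Smn1deltaSKM, a difference of -0.16 (SE 0.329, limma, adjusted p = 0.751). With the mean of the 3 probes Ogdh was not called (-0.94, limma, adjusted p = 0.0557).

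**Figure D2:**
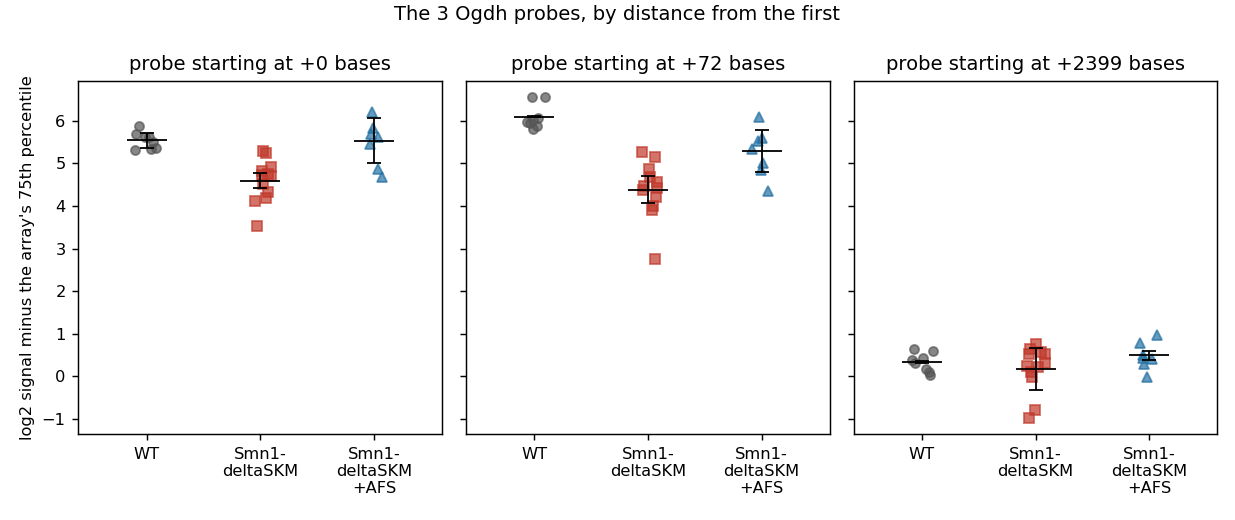
Values of the 3 Ogdh probes in each myofiber, as log2 signal minus the 75th percentile of the array, ordered by distance in bases from the first. Lines are means of the mice with their SD. The first and the second probe read lower in Smn1deltaSKM than in WT in every myofiber, and the third, near 0 in all groups, overlaps.

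From a difference between a pair of probes on the same array, any constant subtracted from the whole array cancels, whereas quantile normalization and normexp can still change it. The 7 pairs computed were chosen after the values were seen, and 2 mice against 3 allow no exact two-sided p under 0.1, so they are described without a test. Suclg1 minus Sucla2 was -0.33 ± 0.0531 in WT (SD, n = 2 mice) and -1.33 ± 0.118 in Smn1deltaSKM (SD, n = 3 mice). No myofiber overlapped: WT myofibers lay from -0.59 to -0.01 and Smn1deltaSKM myofibers from -1.69 to -0.93. Idh3g minus Idh3b was -0.10 ± 0.099 in WT and -1.01 ± 0.109 in Smn1deltaSKM (SD over the same mice), with an overlap of myofibers. Cs minus Mdh2 was -0.85 ± 0.00331 in WT and -2.06 ± 0.195 in Smn1deltaSKM, and here the myofibers were apart as well, from -1.18 to -0.57 against -2.33 to -1.62. In Smn1deltaSKM+AFS these differences stood at -1.21 ± 0.0418, -1.14 ± 0.142 and -2.04 ± 0.0756 (SD, n = 2 mice), within 0.13 of the untreated knockout. The other 4 pairs were less clear, with overlapping myofibers in each. Between Smn1deltaSKM and WT they differed by -1.36 (Ogdh minus Dlst) and -0.65 (Idh3g minus Idh3a), with all 3 Smn1deltaSKM mice below both WT mice, and by -0.41 (Suclg1 minus Suclg2) and -0.27 (Idh3a minus Idh3b), with 2 of the 3 below both. For Suclg1 minus Suclg2 the remaining mouse lay above both. The WT arrays, which hold the higher values, are also the arrays of their own slide and scan day.

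**Figure D3:**
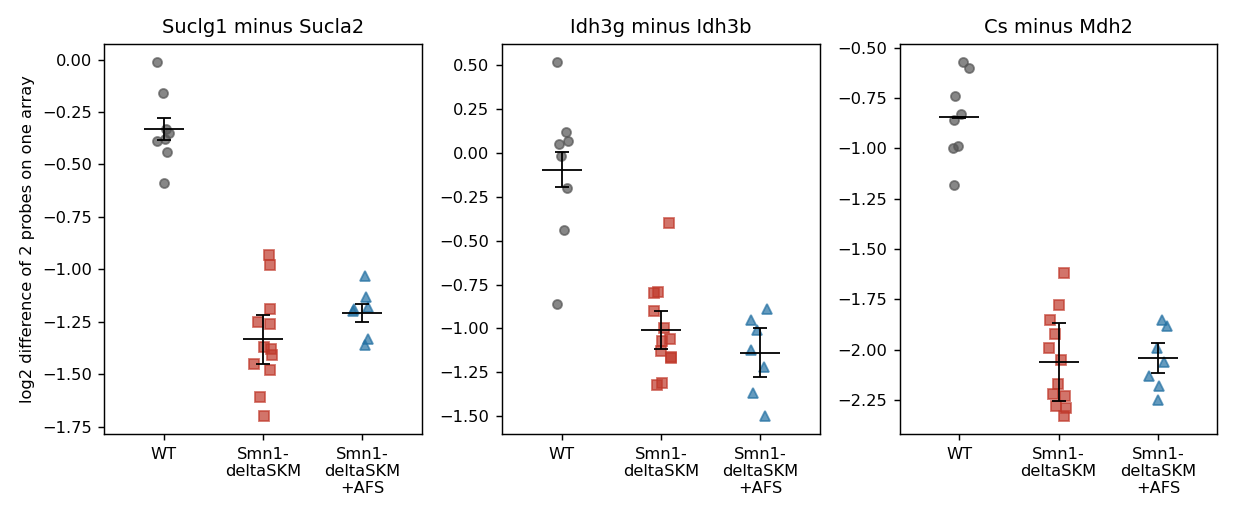
Log2 difference between a pair of probes on the same array, by myofiber, with the mean and SD of the mice. Both knockout groups lie at similar values, and the WT myofibers lie above them without overlap for Suclg1 minus Sucla2 and Cs minus Mdh2.

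In Smn1deltaSKM+AFS against Smn1deltaSKM, which asks whether the levels differed after the transplantation, none of the 9 genes was called, as no gene was on the whole array (0 of 16636, 0%). At an unadjusted p under 0.05 limma found 533 genes in all. Higher at that level were 2.73% of the genes tested and 4 of the 9: Ogdh, Idh3b, Mdh2 and Cs. That count of 4 depended on single mice: it was 8 without Smn1deltaSKM mouse 1, 1 without Smn1deltaSKM mouse 3, 2 without either WT mouse and 0 without treated mouse 2. It was 1 with the mouse number or the slide as a block. All 9 differences were above 0, with a median of 0.66 against 0.06 over all genes. The brightest 10% of the genes, which hold 8 of the 9, had a median of 0.24 under this scaling.

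Ogdh lay between 4.35 and 6.08 in Smn1deltaSKM+AFS (median 5.33), and 6 of 7 myofibers were above the median of the untreated knockout. Its mouse means were 4.95 and 5.65, and the difference was 0.91 (SE 0.317, limma, unadjusted p = 0.0200, adjusted p = 0.9997). Idh3b lay between 5.49 and 6.47 (median 5.99) and differed by 0.72 (SE 0.262, limma, unadjusted p = 0.0242). Cs lay between 4.31 and 5.29 (median 4.87) and Mdh2 between 6.49 and 7.34 (median 6.76). They differed by 0.68 (SE 0.259, limma, unadjusted p = 0.0301) and 0.66 (SE 0.250, limma, unadjusted p = 0.0294), and all 7 treated myofibers were above the untreated median for Idh3b, Cs and Mdh2. For these 4 genes and for Idh3g both treated mice lay above all 3 untreated mice, which 12.4% of genes did.

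Idh3g lay between 4.48 and 5.35 (median 4.91) and differed by 0.59 (SE 0.266, limma, unadjusted p = 0.0555). Idh3a, from 3.49 to 5.03 (median 4.57), differed by 0.67 (SE 0.344), and its mouse means of 4.01 and 4.78 lay on either side of the highest untreated mouse, 4.11. For Fh1 (5.03 to 6.29, median 5.70), Suclg1 (4.25 to 5.28, median 4.49) and Sucla2 (5.41 to 6.41, median 5.82) the differences were 0.48, 0.40 and 0.28 (limma, unadjusted p = 0.208, 0.269 and 0.432). For these 3 the treated and untreated mice overlapped.

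Scan day could be held fixed in this comparison, but slide mostly could not. Untreated myofibers lay on slides 1, 3 and 4 and treated ones on slides 2, 3 and 5. Slide 3, the only shared one, held myofiber 4 of each group. The mean of the 9 genes there was 4.85 in the untreated and 4.91 in the treated myofiber. The part of the slide was not tested apart from treatment. Within the second scan day (5 treated and 9 untreated myofibers) all 9 genes were again higher, by 0.36 to 0.88 with a median of 0.69. Within the first (2 treated myofibers of 1 mouse, 3 untreated of 1 mouse) 6 were higher, with a median of 0.18 and no test, and Idh3a, Sucla2 and Suclg1 were lower, by -0.21, -0.20 and -0.26. At an unadjusted p under 0.05 limma found 5 of the 9 within that second day, Ogdh, Idh3b, Mdh2, Cs and Idh3a, each at an adjusted p of 0.9218. With scan day as a block in the model over both days none of the 9 reached an unadjusted p under 0.05. After quantile normalization the median was 0.42 and again none did, so their size depended on the scaling. The brightest 10% of the genes then had a median of 0. All 9 stayed above 0 under each scaling tried, but Sucla2 was only 0.03 with quantile normalization and 0.02 with normexp before it.

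**Figure D4:**
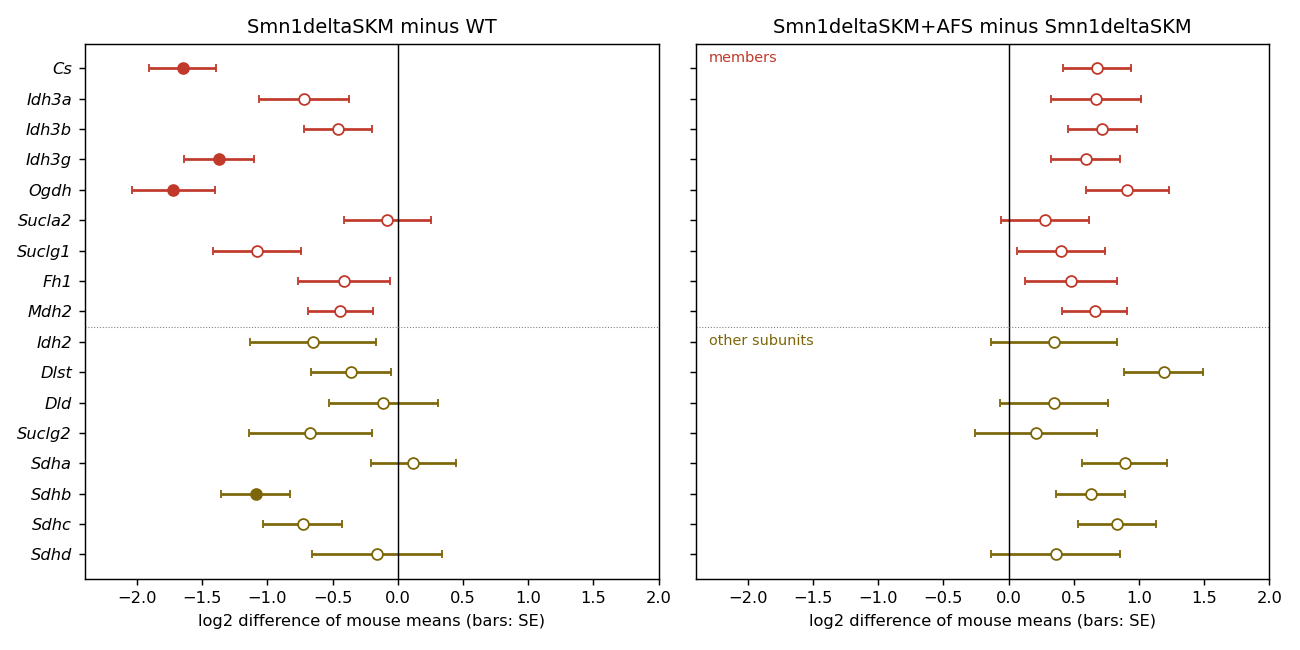
Log2 difference of mouse means with its SE for the 9 genes (above the dotted line) and 8 other genes of the cycle (below it). Filled points were called (adjusted p under 0.05). On the left Cs, Idh3g, Ogdh and Sdhb are filled, and on the right every point lies above 0 and none is filled.

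In Smn1deltaSKM+AFS against WT, 7.81% of all genes were called (1299 of 16636) and none of the 9. At an unadjusted p under 0.05 limma found 4936 genes, the 3 members Cs, Idh3g and Ogdh among them. Cs differed by -0.97 (SE 0.284, limma, adjusted p = 0.0707), and 6 of 7 treated myofibers lay below the lowest WT myofiber. Ogdh differed by -0.80 (SE 0.348, limma, adjusted p = 0.165), Idh3g by -0.78 (SE 0.291, limma, adjusted p = 0.123) and Suclg1 by -0.68 (SE 0.372, limma, adjusted p = 0.259). The other 5 lay within 0.26 of WT: Idh3b at 0.26, Mdh2 at 0.22, Sucla2 at 0.20, Fh1 at 0.08 and Idh3a at -0.06. For these 5 the difference from WT was smaller than its SE (0.274 to 0.386). The order of their 3 group means is therefore not settled. As read, the order differed between genes. For Cs, Idh3g, Ogdh, Suclg1 and Idh3a the treated mean lay between the untreated knockout and WT, and for Idh3b, Mdh2, Sucla2 and Fh1 it lay above both. Without treated mouse 2 the median of the 9 went from -0.06 to -0.44.

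Myofibers of the same mouse differed among themselves, and more so in the knockout. Within a mouse the SD of the 9 genes was 0.22 to 0.35 in WT, 0.43 to 0.66 in Smn1deltaSKM and 0.32 to 0.47 in Smn1deltaSKM+AFS. Over the 10137 genes with a value on every array the median SD ran the other way, 0.46 in WT, 0.36 in Smn1deltaSKM and 0.36 in Smn1deltaSKM+AFS. Smn1deltaSKM mouse 1 was spread over slides 1 and 3, and treated mouse 1 over slides 2, 3 and 5. For these mice the SD also holds slide and scan day, which it does not in WT. Smn1deltaSKM myofiber 12 was the lowest of its group for 7 of the 9 genes, and myofiber 2 for Mdh2 and Ogdh. The mean of the 9 genes was 3.82 in myofiber 12, against 4.30 to 5.32 in the other Smn1deltaSKM myofibers, 4.91 to 5.77 in Smn1deltaSKM+AFS and 5.50 to 5.99 in WT.

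**Figure D5:**
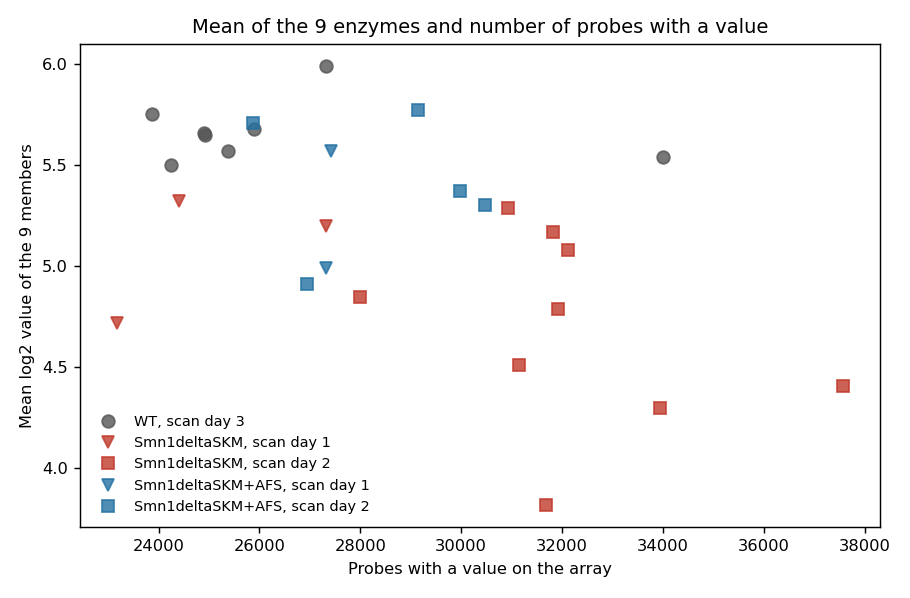
Mean log2 value of the 9 genes in each myofiber against the number of probes with a value on its array. Colours are groups and shapes are scan days. The arrays farthest to the right are mostly Smn1deltaSKM, at 3.82 to 5.29, while the WT array with 34001 probes lies at 5.54.

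The 9 genes varied together from myofiber to myofiber. After the mean of each mouse was taken out, the 36 pairs had a median Pearson r of 0.73 over 27 myofibers, from 0.27 (Ogdh with Fh1) to 0.90 (Cs with Mdh2). The points of each pair share an array and its scaling. The median r of the 10128 other genes with the mean of the 9 was 0.08. An r with a mean is not the same measure as an r between a pair of genes, and those genes were not limited to bright ones. The number of probes with a value had an r of -0.22 with the mean of the 9. The genes most like the mean of the 9 by this measure were Sod2 (the manganese superoxide dismutase of mitochondria, r = 0.949), Atp5f1 (a subunit of ATP synthase, r = 0.931), a transcript without a gene symbol annotated on the minus strand at chrX:102222494-102267068 of mm9 (r = 0.919), Sdhc (the membrane anchor of succinate dehydrogenase, r = 0.908) and Slc25a11 (the oxoglutarate carrier, r = 0.904).

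Around the 9 genes, 8 other enzymes or subunits of the cycle gave 1 call in Smn1deltaSKM against WT (12.5%, against 13.9% of all genes called as lower), with a median difference of -0.51. Sdhb, the iron-sulfur subunit of succinate dehydrogenase, was the one called, lower by a difference of -1.09 (SE 0.265, limma, adjusted p = 0.0257). It lay between 5.60 and 6.46 in WT (median 6.03) and between 3.93 and 5.75 in Smn1deltaSKM (median 5.07), and 11 of 12 Smn1deltaSKM myofibers were below the lowest WT myofiber. Sdhb was not called in 10 of 23 other settings, quantile normalization and the authors' value table among them (limma, adjusted p = 0.0926 and 0.0930). Dlst, the E2 component that works with Ogdh, differed by -0.36 (limma, adjusted p = 0.406). In Smn1deltaSKM+AFS against Smn1deltaSKM all 8 of these differences were above 0 and none was called, with a median of 0.49 and the largest for Dlst, 1.19 (SE 0.304, limma, unadjusted p = 0.00415, adjusted p = 0.9997).

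Among 12 tested genes that bring pyruvate into the cycle 2 were called, both lower in Smn1deltaSKM (16.7%, against 13.9% of all genes). They were Pdhx, the component that holds E3 in the pyruvate dehydrogenase complex (-1.47, SE 0.397, limma, adjusted p = 0.0351), and Mpc1, a subunit of the mitochondrial pyruvate carrier that the array lists under an older symbol (-1.27, SE 0.365, limma, adjusted p = 0.0418). Mpc1 was not called in 14 of 23 other settings and Pdhx in 6 of 22, in both cases including quantile normalization (limma, adjusted p = 0.135 and 0.0503). Among 15 tested genes that fill or drain the cycle or shuttle its products 5 were called, again all lower (33.3%, against 13.9% of all genes). The largest were Gpt2, mitochondrial alanine aminotransferase (-2.33, SE 0.424, limma, adjusted p = 0.0132), Pcx, pyruvate carboxylase (-1.96, SE 0.300, limma, adjusted p = 0.00891), and Glud1, glutamate dehydrogenase (-1.45, SE 0.332, limma, adjusted p = 0.0224). These 3 were not called in 2 or 3 of the other settings each, and the remaining pair, Me1 and Slc25a12, in 16 and 13 of 23. The cytosolic enzymes Mdh1 and Idh1 differed by 0.01 and -0.23 (limma, adjusted p = 0.983 and 0.685). Idh1 was dim, with medians of -1.82 in WT and -1.93 in Smn1deltaSKM. It had values on 6 of 8 WT and 11 of 12 Smn1deltaSKM arrays. None of these genes was called in Smn1deltaSKM+AFS against Smn1deltaSKM. Pcx was the only one called in Smn1deltaSKM+AFS against WT, at -1.76 (SE 0.329, limma, adjusted p = 0.0261).

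Markers of fiber type and of other cells moved as well. All 8 skeletal myofiber markers were well above background on all 27 arrays. Of them Ckm and Ryr1 were called lower in Smn1deltaSKM (-1.76 and -1.56, limma, adjusted p = 0.0214 and 0.0132). On the lower side were 7 of the 8, and the median of the list was -0.65, against -0.72 for the 9 genes. Mb, myoglobin, was the one that was higher there, by 0.95 (limma, adjusted p = 0.11). Of 5 markers of fast glycolytic myofibers Mybpc2 and Actn3 were called lower (-1.35 and -1.14, limma, adjusted p = 0.0129 and 0.0305), and all 5 were on the lower side. Their median was -0.85, with Myh4 at -0.42 and Pvalb at -0.51. The brightest 10% of the genes had a median of -0.43 under this scaling, and 13.9% of all genes were called lower. Called higher against WT were 1340 of the 16636 genes in Smn1deltaSKM and 578 in Smn1deltaSKM+AFS. Myh1, a fast myosin heavy chain from the list of fast oxidative markers, was higher by 2.20 in Smn1deltaSKM (limma, adjusted p = 0.0224) and by 3.45 in Smn1deltaSKM+AFS (limma, adjusted p = 0.0184), each against WT. Its partner on that list, Myh2, was not well above background on most arrays. Mb, from the skeletal myofiber list, was higher by 2.33 in Smn1deltaSKM+AFS against WT (limma, adjusted p = 0.0253). Of the 8 markers on that list 6 were lower in this comparison, and the median was -0.26. In Smn1deltaSKM+AFS against Smn1deltaSKM no marker was called. Mb was higher by 1.38 and Myh1 by 1.25 (limma, unadjusted p = 0.00731 and 0.0376). Myl3, a slow marker, was higher by 1.59 and Ryr1 by 0.82 (limma, unadjusted p = 0.00367 and 0.0198). There 4 of the fast glycolytic markers were higher and 1 lower, and of the slow markers 3 were higher and 3 lower. All 8 skeletal myofiber markers were higher in that comparison, with a median of 0.59, against 0.66 for the 9 genes. Of 6 tested slow myofiber markers Tnni1 was called higher in Smn1deltaSKM and Myl3 in Smn1deltaSKM+AFS, each against WT (1.21 and 1.89, limma, adjusted p = 0.0251 and 0.0420). Both had a value on only 5 of the 8 WT arrays. Myl3 ranged from -2.42 to 4.98 in Smn1deltaSKM+AFS. Its median there was -0.92, against -0.74 in Smn1deltaSKM and -1.5 in WT. The leukocyte markers Cd68 and Ptprc were higher in Smn1deltaSKM (2.99 and 1.33, limma, adjusted p = 0.0369 and 0.0213). Of the other tested leukocyte markers Cd14 differed by 0.98 and Csf1r by -0.50 (limma, adjusted p = 0.129 and 0.162). The summed signal of the 5 leukocyte markers, relative to the 75th percentile, spanned 22.3 to 35.6 in WT, 20.4 to 34.3 in Smn1deltaSKM and 20.2 to 38.9 in Smn1deltaSKM+AFS, and most of that sum is Csf1r signal. For the remaining cell types few markers could be tested, and those tested were not called: Kdr (endothelial), Col1a2 and Col3a1 (fibroblast), Cdh15 (satellite cell), Sox10 (Schwann cell) and Hba-a1 (erythroid). Pecam1, Esam, Col1a1, Dcn and Myf5 had values on too few arrays to be tested, and Cdh5, Tek, Pdgfra, Emr1, Pax7, Calcr, S100b, Hbb-b1 and Alas2 were not well above background on most arrays. The part of fiber type, of other cells and of the scan day in the differences of the cycle genes was not tested.

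The stretches before the start sites of the called genes are shown because all 3 genes were lower in the same comparison. RefSeq's promoter table (GRCm38.p6) matched 8 of the 9 genes, all but Idh3a. The 250 bases before the start are printed 5′ to 3′ on the gene's strand. Capitals mark the motifs searched on both strands: the CCAAT box (CCAAT), the GC box (GGGCGG), the cyclic AMP response element (TGACGTCA), the estrogen-related receptor element (TNAAGGTCA), an ETS site (CCGGAAGT) and a YY1 site (AAGATGGC). No marked motif overlaps another one. For Ogdh, which has 6 starts in the table, the first on the strand was taken.
Cs, chr10:128337477-128337726, plus strand: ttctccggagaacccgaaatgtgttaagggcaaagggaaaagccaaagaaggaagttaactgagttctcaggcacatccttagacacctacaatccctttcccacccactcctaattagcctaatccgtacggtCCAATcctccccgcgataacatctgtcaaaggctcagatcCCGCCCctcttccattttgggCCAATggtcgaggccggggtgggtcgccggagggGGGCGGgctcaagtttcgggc
Idh3g, chrX:73786898-73787147, minus strand: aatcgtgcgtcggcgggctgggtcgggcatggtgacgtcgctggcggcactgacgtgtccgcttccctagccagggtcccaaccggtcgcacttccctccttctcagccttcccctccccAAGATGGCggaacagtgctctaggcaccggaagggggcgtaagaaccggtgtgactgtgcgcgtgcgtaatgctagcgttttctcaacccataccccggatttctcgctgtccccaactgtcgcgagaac
Ogdh, chr11:6291347-6291596, plus strand: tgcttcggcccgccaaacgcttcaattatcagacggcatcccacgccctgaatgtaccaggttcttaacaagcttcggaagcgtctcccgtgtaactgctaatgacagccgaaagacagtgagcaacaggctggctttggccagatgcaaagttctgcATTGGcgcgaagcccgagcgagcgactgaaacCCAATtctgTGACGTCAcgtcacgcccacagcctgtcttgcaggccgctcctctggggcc

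Cs and Ogdh each hold 2 CCAAT boxes, as does Fh1, and with Idh3b 4 of the 8 genes hold at least 1, against 33.8% of the 32851 promoters in the table. The GC box stands before Cs, Fh1, Mdh2 and Sucla2 and in 32.7% of promoters. The cyclic AMP response element stands before Ogdh and Mdh2 and in 1.55% of promoters, and the YY1 letters before Idh3g and in 1.56%. The letters of the estrogen-related receptor element (1.14% of promoters) and of the ETS site (2.88%) were in none of the 8 windows. The called genes share no motif of this search that all 3 of them hold. A match is a description of letters only.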

How the data were processed

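The 27 myofibers were profiled singly: RNA was amplified in 18 cycles, labelled with Cy3 and hybridized to 1-colour Agilent mouse arrays. The authors deposited the intensity of each spot as written by Agilent Feature Extraction (version 10.7.3.1 per the submitters' processing notes), with the background subtracted and a spatial trend removed, and with no scaling from one array to the next. The deposited value table holds linear intensity values made nearly equal in distribution between arrays, and served as an alternative.

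Here the processed signal was taken to log2 and the array's 75th percentile over non-control spots was subtracted. The deposited files hold no log2 values of their own. Spots not found, not well above background or marked as outliers were left out. A probe needed a value on 75% or more of the arrays (22154 probes), and the brightest probe stood for each of 16636 genes. Myofibers were averaged per mouse and fitted with limma 3.58.1 in R 4.3.3. The fit was tested on simulated data. The study's methods used SAM on myofibers, which was not rerun; limma on myofibers is the alternative.

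The genes named are the 9 members, the called genes of fixed lists (at most 3 each way, and up to 2 where none was called), Smn1, and the 5 genes most like the members. A few genes of the lists are not reported here. The members and lists were chosen with earlier results of these data known. Mdh1, Idh1 and Dlst were named in addition, after their values were seen, the first pair as cytosolic enzymes and Dlst as a partner of Ogdh. No label says which numbers pair mice, so no block was used in the model described. Myofibers of 1 mouse share an animal, and p-values measure the spread between few mice.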

Additional observations from a re-analysis of the deposited data

Results flagged for a closer look

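Of 18 groups tested for a value far from the rest (9 genes in WT and in Smn1deltaSKM+AFS), 1 was marked: Cs in WT myofiber 2, at 5.15, lay far below the other 7 WT myofibers for the spread of its group. About 1 in 20 such groups is marked by chance. The group of 12 Smn1deltaSKM myofibers was not tested in this way.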

How the results depend on the processing

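The counts and differences above rest on few mice, and the WT arrays share a slide and a scan day with no other group. For Smn1deltaSKM against WT the median difference of the 9 genes was -0.72 and moved to -0.45 with quantile normalization, -0.37 with normexp before it and -0.45 with the authors' value table. The count of 3 became 6 with myofibers as replicates and 5 without Smn1deltaSKM myofibers 1 to 3 (chosen after seeing the data), and leaving out 1 mouse at a time gave 0 to 6. With the mouse number as a replicate block it remained at 3. The 3656 genes called became 9082 with myofibers as replicates, 5910 with the mouse and 1811 with the slide as a random block, 2375 with the mouse number as a block, and 0 to 7230 with 1 mouse left out. Sucla2, not called in any of these settings, turned to 0.28 with quantile normalization and with the authors' table, 0.25 with normexp, 0.14 with centring on common probes, 0.09 with the slide as a random block, 0.17 with the mouse number as a block, and -0.31 to 0.17 with 1 mouse left out (0.13 and 0.17 without WT mouse 1 and Smn1deltaSKM mouse 3). Ogdh lost its call with normexp (-0.67, limma, adjusted p = 0.201) and with the mean of its probes, and Idh3g with the slide as a random block (-1.23, limma, adjusted p = 0.0602).

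For Smn1deltaSKM+AFS against Smn1deltaSKM none of the 9 was called in any setting. Their median of 0.66 moved to 0.42 with quantile normalization and with normexp, 0.41 with the authors' table, 0.36 with the slide as a random block and 0.18 within scan day 1, and was 0.49 with the mouse number as a block. With myofibers as replicates 20 genes were called over the array. For Smn1deltaSKM+AFS against WT the count of 0 among the 9 became 4 with myofibers as replicates, 1 with the mouse as a random block, 1 with only these groups and 0 to 2 with 1 mouse left out. The median of -0.06 ranged from -0.44 to 0.11 with 1 mouse left out. The 1299 genes called became 754 with quantile normalization and with no filter, 796 with the authors' table, 850 with a value on every array, 6932 with myofibers as replicates, 3392 with the mouse as a random block, 3182 with only these groups, 2104 without Smn1deltaSKM myofibers 1 to 3, and 0 to 4836 with 1 mouse left out. Small differences changed sign there. Idh3a was 0.10 with quantile normalization, 0.21 with normexp, 0.07 with the authors' table and with common centring, and -0.44 to 0.33 with 1 mouse left out (0.11 and 0.33 without WT mouse 1 and treated mouse 1). Ogdh was 0.05 with normexp, Sucla2 ranged from 0.00 (without WT mouse 2) to 0.40, and Fh1 from -0.07 (without treated mouse 1; -0.04 without WT mouse 2) to 0.22. The cause was not tested, except that leaving out a mouse leaves fewer samples. Mice of 1 number share only a number: their deviations correlated between -0.06 and 0.31.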
